A study of Mus musculus with 2 samples.

Results

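ARID4B intervals that lay close to another interval are described here as clusters. A clustered interval had at least 1 other interval on the same chromosome with 5 kb or less between their edges, and intervals linked by such gaps formed 1 cluster. Of the 6632 ARID4B intervals in the list, 1012 (15.26%, exact 95% Clopper-Pearson interval 14.4 to 16.15%) met this rule, and they formed 466 clusters. The other 5620 intervals are called solitary. All intervals came from 1 ChIP-seq library, made with an antibody against ARID4B from a pool of 108 testes of wild type mice at postnatal day 1.5, on a mixed background of C57BL6/J and 129/SvEv. The only other library was input DNA of the same kind of tissue, whose values were not analysed here. Both libraries came from wild type testes, so no sample lacking ARID4B enters any comparison. There was 1 library per group and therefore no replicate, no test and no p-value, and the number of reads behind an interval is unknown. The testes were whole, so no interval can be assigned to a cell type. All confidence intervals cover counting error over intervals, clusters, genes or promoters, which are not replicates.

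ARID4B carries an AT-rich interaction domain and belongs to the SIN3 corepressor complex, a scaffold that brings histone deacetylases to promoters. In the newborn testis it is known for its role in Sertoli cells, the somatic cells that enclose the germ line and form the niche of the first spermatogonial stem cells. A peak caller reports stretches of chromatin where the ChIP library exceeds the input, so several intervals in a row can mark several promoters, several starts of 1 gene, or 1 broad stretch reported in pieces. Whether neighbouring intervals are pieces of 1 stretch was not tested.

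Promoters under clustered intervals are shown for 4 clusters, because they hold 2 starts of a gene under 1 interval, a start under each interval, 1 start at the edge of a row of intervals, and the starts of neighbouring genes. Each is the RefSeq promoter window of the GRCm38.p6 build, printed 5′ to 3′ from 250 bases before to 50 bases after each listed start of transcription. CpG dinucleotides are in capitals. The score given with each interval is the authors' own value, and its scale is not stated: the list is labelled as holding p-values, yet all values exceed 70, so they are not plain p-values. Sums and ratios of scores below describe these numbers only and are not folds of ARID4B binding. Midn, which encodes the nuclear protein midnolin, had both of its listed starts under 1 wide interval (score 1535.07), at chr10:80148022-80148321 and chr10:80149432-80149731 on the plus strand. Sin3a, the scaffold gene of ARID4B's own complex, had a listed start under each of its 2 intervals (scores 402.47 and 192.75), at chr9:57071790-57072089 and chr9:57076126-57076425 on the plus strand. Inhbb, a subunit gene of activin B and inhibin B, had its 1 listed start under the last of 3 intervals (score 421.1), at chr1:119422199-119422498 on the minus strand. Ckb, brain-type creatine kinase, and Trmt61a, a transfer RNA methyltransferase subunit, are neighbours transcribed away from each other. Each had its own interval, with the windows at chr12:111672289-111672588 on the minus strand and chr12:111677855-111678154 on the plus strand.
Midn, first start: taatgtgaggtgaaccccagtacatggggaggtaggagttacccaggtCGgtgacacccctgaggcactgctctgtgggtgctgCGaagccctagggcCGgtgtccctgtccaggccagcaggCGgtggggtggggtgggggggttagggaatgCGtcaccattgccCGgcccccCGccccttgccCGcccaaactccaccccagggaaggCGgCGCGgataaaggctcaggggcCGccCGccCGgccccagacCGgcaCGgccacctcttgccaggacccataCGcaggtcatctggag
Midn, second start: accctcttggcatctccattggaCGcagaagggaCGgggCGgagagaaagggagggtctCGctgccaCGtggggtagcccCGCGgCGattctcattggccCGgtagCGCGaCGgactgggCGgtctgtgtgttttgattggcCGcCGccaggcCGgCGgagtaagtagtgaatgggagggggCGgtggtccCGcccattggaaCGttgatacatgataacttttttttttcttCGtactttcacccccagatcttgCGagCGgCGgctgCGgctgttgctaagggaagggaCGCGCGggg
Sin3a, first start: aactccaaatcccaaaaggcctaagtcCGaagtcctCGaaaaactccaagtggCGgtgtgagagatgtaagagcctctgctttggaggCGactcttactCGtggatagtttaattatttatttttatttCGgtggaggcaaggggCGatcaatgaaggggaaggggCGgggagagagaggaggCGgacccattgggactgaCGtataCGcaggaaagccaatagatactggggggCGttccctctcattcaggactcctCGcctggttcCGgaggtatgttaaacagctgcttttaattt
Sin3a, second start: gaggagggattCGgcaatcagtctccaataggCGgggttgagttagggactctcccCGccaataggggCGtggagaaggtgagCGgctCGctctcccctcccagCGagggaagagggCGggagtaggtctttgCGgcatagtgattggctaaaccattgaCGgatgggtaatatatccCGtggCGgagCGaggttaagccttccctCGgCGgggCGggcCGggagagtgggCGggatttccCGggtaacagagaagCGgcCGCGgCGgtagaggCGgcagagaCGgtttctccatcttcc
Inhbb: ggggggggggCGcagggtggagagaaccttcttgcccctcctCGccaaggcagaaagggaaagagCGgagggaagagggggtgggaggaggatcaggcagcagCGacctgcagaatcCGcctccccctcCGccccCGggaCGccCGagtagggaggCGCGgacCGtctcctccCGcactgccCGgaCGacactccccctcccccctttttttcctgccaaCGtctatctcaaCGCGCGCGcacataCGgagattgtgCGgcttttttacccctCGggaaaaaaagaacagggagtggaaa
Ckb: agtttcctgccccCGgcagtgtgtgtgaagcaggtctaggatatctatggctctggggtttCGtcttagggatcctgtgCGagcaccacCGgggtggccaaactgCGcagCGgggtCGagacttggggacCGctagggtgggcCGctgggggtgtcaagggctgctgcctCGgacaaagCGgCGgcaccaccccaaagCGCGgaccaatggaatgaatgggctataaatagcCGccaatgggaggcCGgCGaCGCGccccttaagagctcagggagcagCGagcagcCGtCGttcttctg
Trmt61a: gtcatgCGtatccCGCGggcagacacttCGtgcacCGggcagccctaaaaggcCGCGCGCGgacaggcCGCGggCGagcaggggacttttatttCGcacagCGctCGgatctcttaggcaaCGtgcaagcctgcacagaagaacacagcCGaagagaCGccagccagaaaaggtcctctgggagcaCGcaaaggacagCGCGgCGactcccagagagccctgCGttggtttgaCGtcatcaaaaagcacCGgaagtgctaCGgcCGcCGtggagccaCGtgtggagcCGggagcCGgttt

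The 7 windows held between 14 and 31 CpGs. The 2 Midn windows differed, with 17 CpGs (0.49 of the number expected from their C and G content) before the first start and 28 (1.02) at the second. The 2 Sin3a windows had 14 (0.78) and 25 (0.91). Ckb, whose window holds the TATA box letters TATAAA, had 22 (0.75). Trmt61a, whose window holds the CREB site TGACGTCA, the ETS motif CCGGAAG and the E-box CACGTG, had 31 (1.04). The second Midn window holds CACGTG too. The Inhbb window had 23 (0.74).

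Most clusters were small and tight. Of the 466 clusters, 406 (87.12%) had 2 intervals, 47 had 3, 8 had 4, 3 had 5 and 2 had 6. The gap between neighbours inside a cluster had a median of 502.5 bp, while the median over all neighbouring intervals on a chromosome was 104433 bp. Of the 546 gaps inside clusters, 184 (33.7%) were at most 200 bp, 159 lay between 200 and 1000 bp, 83 between 1000 and 2500 bp and 120 above that. Counted per kilobase, 343 gaps fell in the first, then 62, 53, 39 and 49 up to the limit of 5 kb, and 48, 53, 36, 49 and 33 in the 5 kb beyond it. The excess of short gaps thus lay under 1 kb, and the limit of 5 kb fell on a flat stretch. Clusters spanned a median of 3171.5 bp, from 1171 to 17077 bp.

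**Figure D1:**
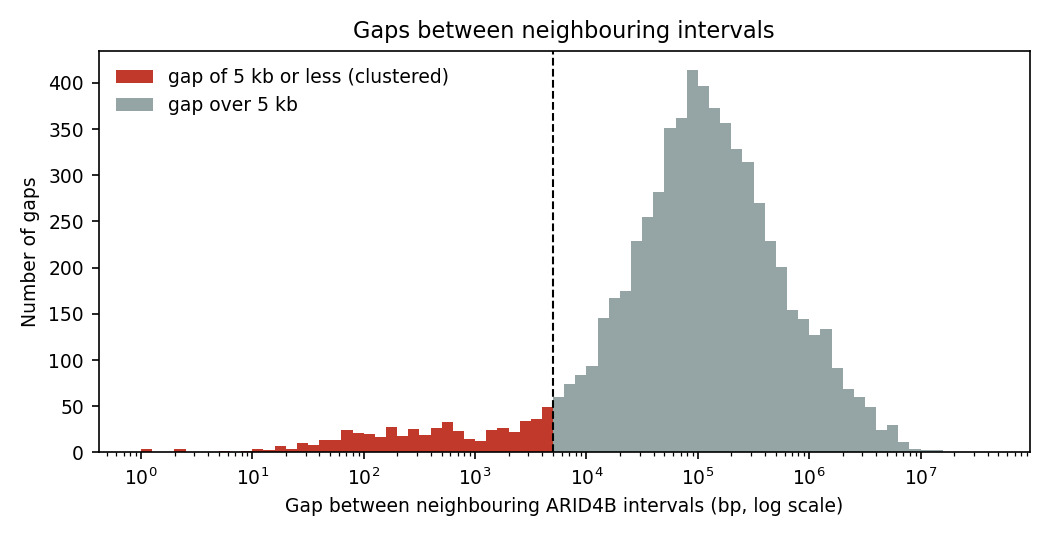
Number of gaps between neighbouring ARID4B intervals on the same chromosome, by size in bp on a log scale, with the 546 gaps of 5 kb or less in red and the limit as a dashed line. The clustered gaps spread over more than 3 decades with a median of 502.5 bp, well below the main body of gaps around the overall median of 104433 bp.

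The shortest gap was 1 bp. It was found at Ubtf, the gene of a transcription factor of RNA polymerase I, between intervals scoring 275.26 and 343.75, at Pknox2, a TALE homeobox gene (240.22 and 150.35), at Setd5 (summed score 332.29) and at Cd47, the gene of a cell-surface signal against phagocytosis (191.42). At the other side, the widest gaps accepted were 4995 bp at Irf2bp2, 4982 bp inside Pura and 4967 bp between intervals at Polr1c with Yipf3 and at Lrrc73. The first gaps refused were 5004 bp between intervals at Mrpl55 and 2310033P09Rik, 5036 bp inside Plec and 5056 bp between intervals at Nr6a1 and Olfml2a. Pairs on the 2 sides of the limit had scores in the same range, 71.13 to 275.03 inside and 70.56 to 210.76 outside.

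Clustered and solitary intervals carried similar scores. The score had a median of 122.06 (quartiles 91.03 and 178.57) for clustered and 125.39 (92.48 and 184.43) for solitary intervals. Clustered intervals made up between 11.76 and 16.89% of each decile of the list by score, 15.81% of the lowest and 16.42% of the highest. At the very top the share was larger, with 9 of the 20 best and 23 of the 100 best intervals clustered. Widths had medians of 1033 bp for clustered and 1092 bp for solitary intervals. With only intervals scoring above the median of the list, clustered again, both orders turned, to scores of 192.75 for clustered and 183.11 for solitary intervals and widths of 1334 and 1281 bp. In 2-interval clusters with a gap of at most 200 bp the single intervals were narrower (median 900.5 bp) while the whole cluster spanned a median of 1977 bp. Score went with width to a like degree in both groups, with Spearman's rho of 0.63 across 1012 clustered and 0.60 across 5620 solitary intervals.

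Within a cluster the scores were often unequal, and scores varied over the whole list too, with quartiles of 92.3 and 183.6. In the 406 clusters of 2, the better interval scored a median of 1.57 times the other, 188 (46.31%) had scores within 1.5 times of each other, and 45 (11.08%) differed by more than 3 times. The largest ratio was 12.53, at Zfp36l2, which encodes a zinc finger protein of messenger RNA turnover. Its interval at chr17:84184950-84187392 scored 1760.61, the highest of the list, and the interval 73 bp beyond it scored 140.49. Pairs at a single gene had a median ratio of 1.61, and pairs at the ends of different genes one of 1.32. Across the 406 pairs the better and the lesser score had a Spearman's rho of 0.53, which the ordering of each pair raises by itself. By position along the chromosome, with no such ordering, it was 0.07. No ratio was computed for intervals from different clusters, so whether the inequality is particular to clusters was not tested. The medians of the best interval of each cluster (163.55) and of all others (97.57) are set apart by the choice of the best and are given only as levels.

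Clustered intervals lay less often at gene ends than solitary ones. An interval was counted at a gene end when it overlapped the 1 kb on either side of an end of a protein-coding gene record. Of the clustered intervals 668 (66.01%, 63.0 to 68.93%) did so, and of the solitary intervals 4655 (82.83%, 81.82 to 83.81%). The difference was made up by intervals inside gene records away from the ends, with 305 (30.14%) clustered and 832 (14.8%) solitary. Intervals between genes were few in both groups, 39 (3.85%) and 133 (2.37%). These shares count each interval of a cluster by itself. Of the 466 intervals with the best score of their cluster 341 (73.18%) lay at a gene end, and of the 546 others 327 (59.89%). These values describe 1 list, and no test of the difference was possible over samples.

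Where RefSeq lists starts of transcription with their strand, the same was seen in relation to the start. For 752 clustered and 4317 solitary intervals, a start was listed for every protein-coding gene they touched, a touched gene being one whose record with 1 kb on either side overlaps the interval. A listed start lay under 345 of these clustered intervals (45.88%, 42.27 to 49.52%) and under 3489 of the solitary ones (80.82%, 79.61 to 81.98%). A given start can lie under only 1 interval of a cluster, which lowers the share per interval. Counted per cluster, in 251 of 328 clusters (76.52%, 71.56 to 81.01%) at least 1 interval covered a start. The confidence interval of this share holds the 80.82% of solitary intervals. The midpoints of solitary intervals lay a median of 234 bp downstream of the nearest listed start (quartiles 91 and 419 bp). Those of clustered intervals lay a median of 413 bp downstream, with wider quartiles of 10.5 and 1280 bp. Of the clustered intervals 192 (25.53%) were over 1 kb from any listed start, 169 of them downstream, against 360 (8.34%) of the solitary ones.

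**Figure D2:**
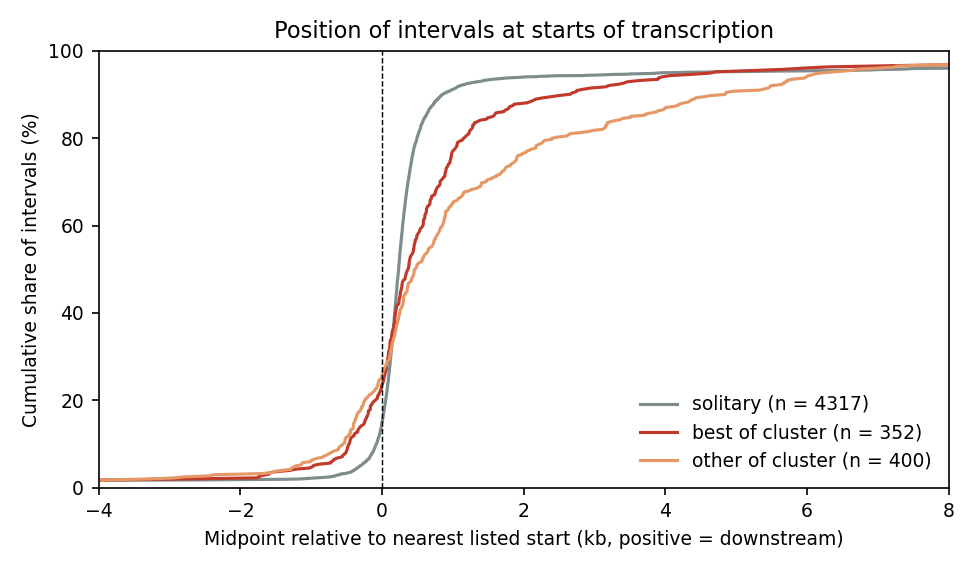
Cumulative share of intervals (%) by the position of their midpoint relative to the nearest listed start of a touched protein-coding gene (kb, positive values downstream), for 4317 solitary intervals, 352 intervals that were the best of their cluster and 400 other intervals of clusters. The solitary curve rises steeply just downstream of the start (median 234 bp), the best of each cluster follow (368.5 bp) and the others trail further into the gene (468.5 bp, upper quartile 1894.75 bp).

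Most clusters belonged to a single gene. In 277 of the 466 clusters (59.44%, 54.83 to 63.94%) every interval touched the same protein-coding gene and no other. In 59 (12.66%, 9.78 to 16.03%) at least 2 intervals lay at separate gene ends, each at an end that the other did not reach. Another 121 (25.97%) fitted neither description, 104 because 2 or more overlapping or adjoining genes were touched and 17 because an interval lay between genes beside 1 touched gene. The remaining 9 (1.93%) touched no protein-coding gene. The arrangement changed with the gap. Among the 151 pairs with a gap of at most 200 bp, 114 (75.5%) were at 1 gene and none were at separate gene ends. Among the 88 pairs with a gap over 2500 bp, 26 (29.55%) were at 1 gene and 37 (42.05%) at separate ends. A pair at separate ends needs room for the stretches of both ends, so part of this shift is set by the definition.

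**Figure D3:**
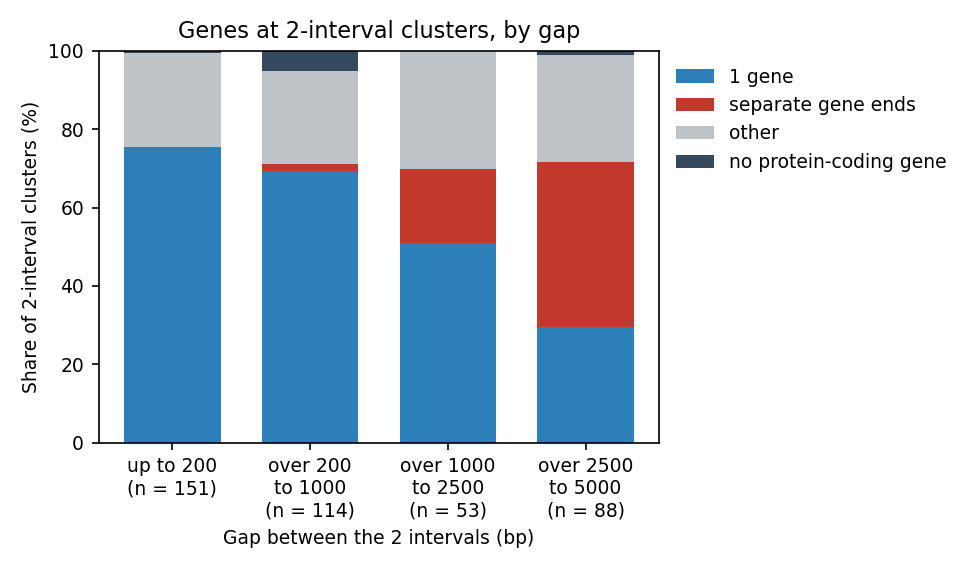
Share of 2-interval clusters (%) at 1 gene, at separate gene ends, in other arrangements and at no protein-coding gene, as stacked bars for 4 classes of gap in bp, with the number of clusters under each bar. The 1-gene share falls from 75.5% in the shortest class to 29.55% in the longest, where separate gene ends take 42.05%.

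In single-gene clusters the intervals mostly followed each other from the start into the gene. A start was listed for 223 of the 277. One interval covered a listed start in 144 (64.57%), 2 or more did in 16 (7.17%), and none did in 63, of which 26 had a listed start in the gap between 2 intervals. Of these 223 genes 66 had 2 or more listed starts. In the 198 clusters of 2, the interval nearer the 5′ end of the gene had its midpoint a median of 100 bp downstream of the outermost start and the second a median of 1400.5 bp downstream. The 5′ interval had the higher score in 100 of the 198 (50.51%, 43.33 to 57.67%). In the 126 pairs where exactly 1 interval covered a start, that interval scored higher in 79 (62.7%, 53.64 to 71.15%), with medians of 142.45 over the start and 111.71 beside it. Score went with width over clustered intervals (Spearman's rho of 0.63), and a wider interval reaches a start more readily. Widths were not compared in these pairs, so a part played by width was not tested.

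The 16 clusters with separate intervals over listed starts included genes of transcription and chromatin. At Sp3, a GC-box-binding factor gene, the 2 intervals scored 230.97 at the 5′ start and 123.74 at the next. At Tgif1, a homeobox repressor gene, they scored 149.32 and 179.79 from 5′ to 3′. Ubtf had 6 listed starts, and its intervals scored 76.56, 343.75 and 275.26 from 5′ to 3′. Listed starts lay under the first (1) and the third (3), and the highest-scoring one covered none. Sin3a fell from 402.47 to 192.75 between its starts, 1627 bp of unmarked sequence lying between the intervals. In 11 of the 15 clusters of this kind with 2 intervals, the one at the later start scored higher; Sp3 and Sin3a were among the 4 where the 5′ one did.

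**Figure D4:**
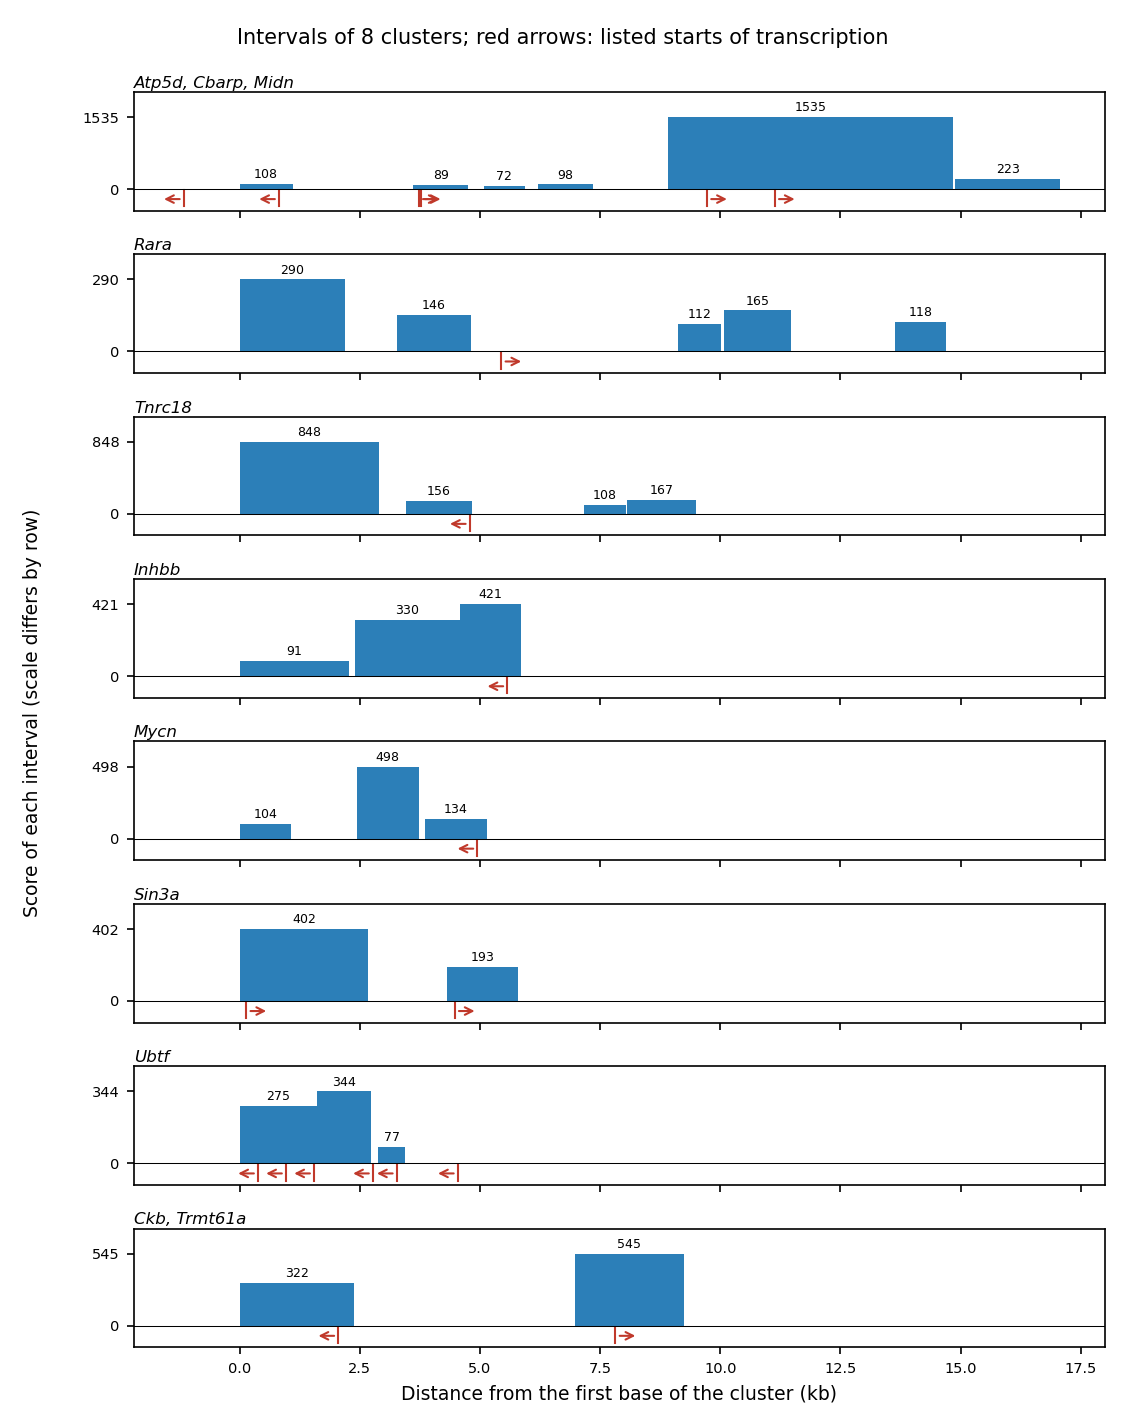
Intervals of 8 clusters drawn as boxes to scale along the distance from the first base of the cluster (kb), with box height giving the score of each interval on an axis that differs by row, and red arrows marking listed starts of transcription and their direction. Midn and Sin3a show boxes over starts, Mycn and Tnrc18 show the tallest box downstream of the listed start, and Ckb and Trmt61a each have a box over its own start, 4586 bp apart.

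The largest clusters had 6 intervals. One stretched over chr10:80138546-80155622 across Cbarp, Atp5d, a subunit gene of the mitochondrial ATP synthase, and Midn. From low to high coordinates its intervals scored 108.0, 88.67, 72.26, 98.49, 1535.07 and 223.4. The 2 high scores were both inside Midn, and the 4 intervals before them scored between 72.26 and 108.0. The other lay in Smad7, the inhibitory SMAD of TGF-beta signalling, at chr18:75366153-75377037, with scores of 99.15, 252.33, 848.3, 109.95, 123.24 and 72.76. The third interval had the highest score and the second the next highest, and 4 of the 5 gaps were 368 bp or less.

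Among the 13 clusters of 4 or more intervals, 5 were confined to 1 gene: Smad7, Rara, Tnrc18, Cic and Kazald1. Rara, a receptor gene for retinoic acid, had 5 intervals within 14695 bp, scoring 289.74, 146.37, 111.69, 165.23 and 118.22 from 5′ to 3′. None of the 5 covered a listed start, and 1 listed start lay between the second and the third. Tnrc18 had 848.37, 155.71, 107.56 and 166.99 in chromosome order, with its listed start under the second. Cic, the Capicua repressor gene, had 89.7, 78.87, 227.5 and 114.75, and Kazald1 had 109.49, 155.84, 115.23 and 93.47. In Rara, Cic and Kazald1 no interval exceeded 289.74, while Tnrc18 held 1 interval among the 20 best of the list.

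Large clusters over several genes also occurred. At chr17:25828206-25844780, 5 intervals touched 6 genes, among them Stub1, a ubiquitin ligase gene, and Rhot2, a mitochondrial GTPase gene. They all scored between 72.0 and 114.44, although the widest covered 3988 bp. At Chrnb1, Fgf11 and Tmem102 there were 5 intervals between 79.79 and 170.2, and at Zfp580, Ccdc106 and U2af2, a splicing factor gene, 4 between 71.46 and 152.97. Mafg, a small Maf factor gene, and Sirt7 shared a cluster of 4 with scores of 268.98, 96.37, 135.54 and 122.09. Rhof and Setd1b, an H3K4 methyltransferase gene, shared one of 403.6, 164.96, 91.31 and 169.16.

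Several of the best-scoring clusters paired an interval of very high score with a lower one nearby. Irf2bp2, a corepressor gene, had 1641.15 at chr8:126591005-126593527, with 71.13 on one side and 85.41 on the other, and one more interval (120.49) between genes. The listed start of Irf2bp2 lay under the interval scoring 85.41, not under the strongest one. Hic1, a repressor gene whose interval also reached an end of Smg6, had 1584.47 and, 2683 bp away between genes, 388.28. Sox4, a gene of the SoxC factors, had 964.74 over its start and, 4250 bp from that interval between genes, 116.54. Zfp703 had 164.98 and 922.31, and Tbx2, a T-box repressor gene, had 96.74, 127.17, 636.17 and 148.46. Ier5l, of the immediate early response gene family, was more even with 374.94 and 554.11. Bahcc1 had 166.9, 328.59 and 434.52, the first of them between genes.

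Some clusters at separate gene ends held the starts of neighbouring genes. Of the 59 such clusters, 28 were counted in which neighbouring intervals each lay within 1 kb of a listed start of a different gene. The count is not complete. Starts of Cbarp and Atp5d, of Jmjd8 and Stub1, and of Ring1 and H2-Ke6 also lay under neighbouring intervals, in clusters outside the 28. Within the 28, the genes were divergent (transcribed away from each other) in 19, on the same strand in 8 and convergent in 1. Median gaps were 3323 bp in the divergent and 3731 bp in the same-strand pairs. Ckb and Trmt61a, with scores of 321.86 and 544.78, had the highest sum of the 28. Rpl35a, a ribosomal protein gene that shares its interval with Iqcg (379.51), had Lmln as neighbour (190.67). In other clusters at separate gene ends, Rpl10a (478.76) had Tead3 (77.89), Rpl8 (443.89) had Commd5 (110.71). Suds3, which encodes a SIN3-associated protein (143.65), was divergent from Taok3 (104.29). A cluster of 3 intervals in the major histocompatibility region joined Ring1, a Polycomb gene (338.23), H2-Ke6 with Slc39a7 (133.53), and Rxrb, a retinoid X receptor gene that shares its interval with Slc39a7 and H2-Ke6 (348.04).

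Counted by gene, clustered intervals were sparse. Of 21887 protein-coding genes, 6709 (30.7%) touched any interval, 650 (2.97%) touched a clustered one, and 463 (2.12%) touched 2 or more intervals of 1 cluster. Of the genes with any interval, 9.69% therefore touched a clustered one. Genes with 2 or more intervals of a cluster had a median length of 21.3 kb, against 27.3 kb for genes with solitary intervals only and 17.2 kb for all. The 41 genes with 3 intervals had a median length of 9.94 kb. The counts of list members below are set beside 2.97% of all protein-coding genes and 9.69% of genes with any interval. The lists, 24 in all, share some members, and no list was tested.

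Sertoli cell genes were among those with the most clusters. Of 30 such genes 13 touched any interval and 7 a clustered one (23.33%, 9.93 to 42.28%), which is 53.85% of the 13. The 7 were Gata4, Wt1, Inhbb, Sox9, Inha, Dhh and Espn, and all 7 touched at least 2 intervals. Over all 650 genes with a clustered interval, 463 (71.23%) did so. The median summed score of the 7 was 611.4, against 243.4 over the 650 genes with a clustered interval. Most other lists with a clustered gene were also above 243.4, all but Hox (168.73) and homeobox outside Hox (224.38). GATA and Sox factors, a list that shares Gata4 and Sox9, had 788.07, and the 1 imprinted gene had 742.07. Gata4, a zinc finger factor gene needed for gonad formation, had 894.01 and 319.27, 2027 bp apart and both inside its record. Wt1, a zinc finger factor gene needed for Sertoli identity, had 626.23 at the end of its record and then 114.83 and 118.22 inside it, each about as far from the next (1744 and 1753 bp). Inhbb had 421.1 over its start, then 330.38 and 91.13 into the gene, falling with distance from the start. Sox9, a gene of Sertoli cell differentiation that acts downstream of Sry, had 107.56 and 178.8 at its end and 325.04 inside its record, so its best interval was not the one at the end. Dhh, the Desert hedgehog ligand gene, had 100.06 over its start and, 2462 bp from that interval, 268.02. With only intervals scoring above the median of the list, 4 of the 30 genes remained in clusters, while the count over all genes fell from 650 to 189.

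Signals of the somatic niche were clustered in 6 of 27 genes (22.22%, 8.62 to 42.26%), or 31.58% of the 19 with any interval. Dhh was 1 of the 6. Pdgfa, the gene of a platelet-derived growth factor chain, had 232.66, 347.36 and 85.76, the first and second separated by 2 bp and the second covering both listed starts. Jag1, a Notch ligand gene, had 260.44 and 145.05. Nrtn, a ligand of the GDNF family, had 223.28 and 76.59, summing to 299.87 over a gap of 4787 bp. Wnt5a and Inhba were the other 2. With a gap of 2500 bp the count fell to 3 genes. Germ cell genes had none in a cluster. Of 30, 4 touched any interval and 0 a clustered one, which allows a share of up to 10% by the limit of 3 genes and 11.57% by the exact interval, so a share at the level of all genes was not detectable as different.

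Markers of the other cells of the testis had small counts. Of 18 Leydig cell and steroidogenic genes, 2 touched a clustered interval (11.11%, 1.38 to 34.71%), which is 25% of the 8 with any interval: Nr2f2, an orphan nuclear receptor gene (178.49, 153.01 and 116.94), and Pdgfra (272.36 and 157.02), a receptor for platelet-derived growth factors. Of 12 peritubular myoid genes there were also 2 (16.67%, 2.09 to 48.41%), which is 50% of the 4 with any interval, both of them tropomyosin genes, Tpm1 (summed score 317.65) and Tpm2 (244.19). The myoid count was 0 with a gap of 2500 bp and also with only intervals above the median score. None of 16 endothelial and macrophage genes touched a clustered interval, which allows up to 18.75% by the limit of 3 genes and 20.59% by the exact interval. Tpm1, Tpm2, Nr2f2 and Pdgfra are expressed outside these cells too. How much each cell type gave to these intervals, or to those at the Sertoli cell genes, was not tested.

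Clusters were found in each transcription factor family listed, with wide and overlapping exact intervals. The basic helix-loop-helix and Id factors had 9 of 38 genes (23.68%, 11.44 to 40.24%), or 31.03% of the 29 with any interval. Mycn and Mnt, 2 members of the MYC network, led them. Mycn, a proto-oncogene, had 134.11 over its start, 497.68 in the middle of the gene and 104.32 at its far end. Mnt, whose product opposes MYC, had 214.91 over its start and then 191.84 and 104.9, with gaps of 4615 and 4156 bp. Tfeb, a factor gene of lysosome biogenesis, had a summed score of 314.47 and Hes1, a Notch target gene, 281.42. Nuclear receptors had 9 of 40 genes (22.5%, 10.84 to 38.45%), or 39.13% of the 23 with any interval. Rara, Nr2f2, Nr1h2 and Rxrb came first. Nr1h2, an oxysterol receptor gene, had 141.44, 155.6 and 95.05, a rather even set. Of the 9 nuclear receptor genes 6 touched at least 2 intervals of a cluster, against 71.23% of all genes with a clustered interval.

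The bZIP factors had 7 of 37 genes (18.92%, 7.96 to 35.16%), or 24.14% of the 29 with any interval. Junb, an AP-1 factor gene, had 416.44 over its start and 83.92 beside it. Fosl2 had 279.31 over its start and, 1559 bp from that interval between genes, 105.81. Fosl1 shared an interval of 293.95 with Ccdc85b. Homeobox genes outside the Hox clusters had 9 of 51 (17.65%, 8.4 to 30.87%), or 36% of the 25 with any interval. All 9 touched at least 2 intervals, against 71.23% of all genes with a clustered interval. Pbx3, a TALE homeobox cofactor gene, had 244.88 and 216.88, and Tshz3, whose intervals also touched Gm36722, had 318.17 and 111.37. With only intervals above the median score, clusters were left at 3 bHLH and Id, 5 nuclear receptor, 0 bZIP and 2 of these homeobox genes. Tgif1 is described above, and Zeb1, a repressor gene of epithelial identity, summed to 261.3.

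Hox genes themselves had 3 of 39 (7.69%, 1.62 to 20.87%), or 17.65% of the 17 with any interval. Neighbouring Hox genes lie close together. Hoxd10 (168.73) and Hoxd9 (424.41) shared a cluster with a gap of 4059 bp, and Hoxa9 had 82.08 and 83.27. With a gap of 2500 bp there were none and with 10000 bp there were 7. GATA and Sox factors had 4 of 26 (15.38%), or 26.67% of the 15 with any interval. These were Gata4, Sox4, Sox9 and Zfpm1, the gene of a GATA cofactor (186.58 and 138.12, 68 bp apart). Klf, Sp and Egr factors had 3 of 30 (10%), or 13.04% of the 23 with any interval. The 3 were Sp3, Klf3 (173.69 and 164.6) and Egr1, an immediate early gene (273.18 and 158.93). Forkhead factors had 2 of 33 (6.06%), or 8.7% of the 23 with any interval. Foxj3 had 207.34 and 142.13, and Foxq1 had 115.48 and 108.53. The pairs at Klf3 and Foxq1 were nearly equal.

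Chromatin regulators had clusters at a few genes. Polycomb genes and histone methylase and demethylase genes had 7 of 45 (15.56%, 6.49 to 29.46%), or 25.93% of the 27 with any interval. The count fell to 4 with a gap of 2500 bp and to 3 with only intervals above the median score. Kmt2c, an H3K4 methyltransferase gene, had 183.86 and 358.69, Setd1b 3 of the 4 intervals described above, Kdm5b, an H3K4 demethylase gene, 418.77 beside an interval of 71.5 in Mgat4e, and Ring1 338.23. SWI/SNF, CHD and BET genes had 2 of 34 (5.88%), or 8% of the 25 with any interval. Arid1a, a SWI/SNF subunit gene with the same type of domain as ARID4B, had 545.45 and 143.05. Arid2 had 150.91, and the second interval of its cluster (125.13) touched only the overlapping Gm38469. The SIN3 complex and retinoblastoma family had 2 of 21 (9.52%), Sin3a and Suds3, or 13.33% of the 15 with any interval. The other 13 of the 15 genes of that list with any interval had solitary ones.

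Among genes of basic cell functions, the ribosomal protein genes had the most clustered members. Cytosolic ribosomal protein genes had 8 of 78 (10.26%, 4.53 to 19.21%), or 14.29% of the 56 with any interval. Of the 8, 3 touched 2 or more intervals, against 71.23% of all genes with a clustered interval. Rpl23 was the best of those 3, with 120.39 and 301.68. With a gap of 2500 bp the count was 3. Splicing regulators had 2 of 33, Hnrnpl (260.3 and 165.45) and Hnrnpd (199.11 and 126.55), or 7.41% of the 27 with any interval. Oxidative phosphorylation genes had 1 of 66, Atp5d in the cluster with Midn, or 3.57% of the 28 with any interval. Replication-dependent histone genes had 0 of 54, 4 of them with any interval, which allows up to 5.56% by the limit of 3 genes and 6.6% by the exact interval. Genes for receiving and passing on Wnt, Notch, Hedgehog and TGF-beta signals had 3 of 48 (6.25%), or 7.69% of the 39 with any interval. These were Smad7, Tcf7l2, a Wnt effector gene (172.31 and 77.67), and Ctnnb1, the beta-catenin gene (125.04 and 85.62). MAPK feedback genes had 1 of 19, or 8.33% of the 12 with any interval: Dusp6 (193.52, 202.33 and 89.66), a phosphatase gene. Imprinted genes had 1 of 35, or 5% of the 20 with any interval. It was Gnas, with an interval of 505.11 over 2 of its listed starts and 236.96 at 593 bp from that interval.

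**Figure D5:**
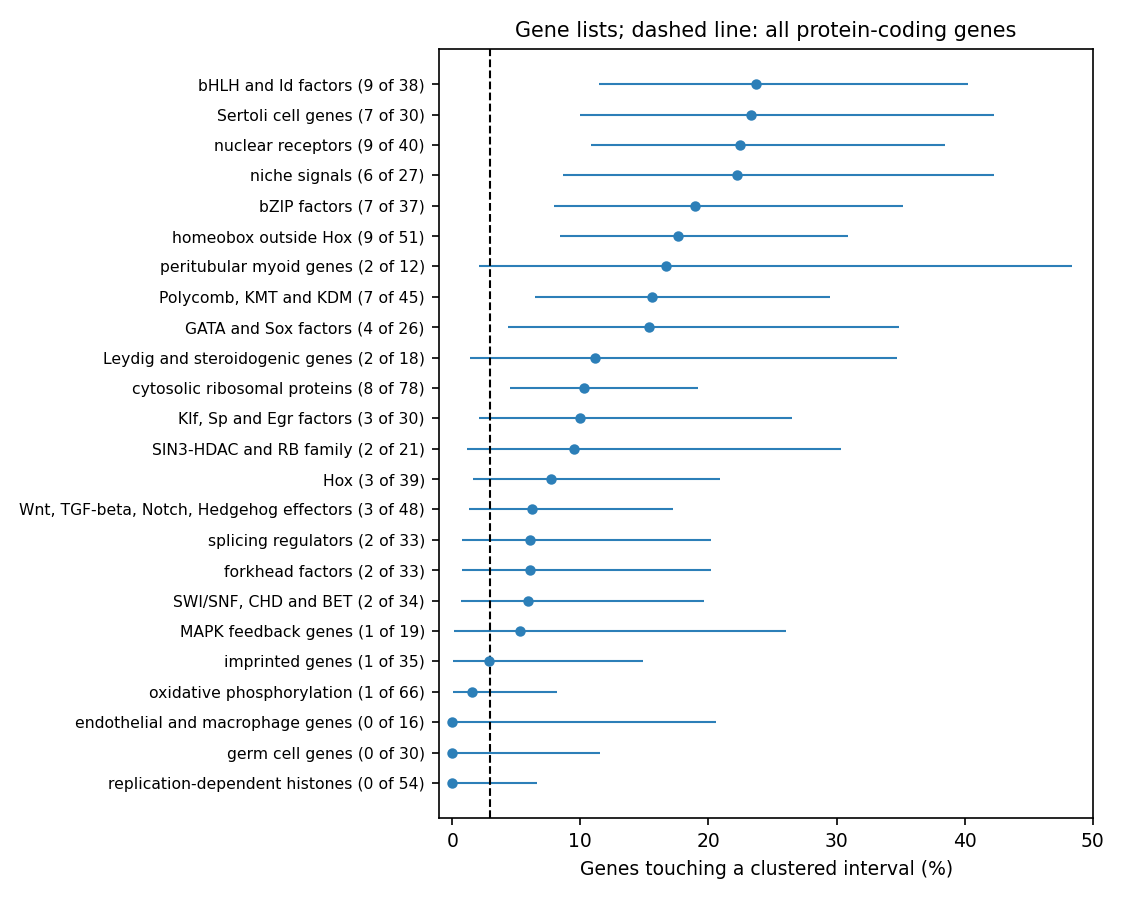
Share of the protein-coding genes of each list that touched a clustered interval (%), as points with exact 95% Clopper-Pearson intervals, the counts being given beside each name and the dashed line marking 2.97% of all protein-coding genes. The highest points are the bHLH and Id factors (23.68%), Sertoli cell genes (23.33%) and nuclear receptors (22.5%), and 3 lists lie at 0.

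Only 9 clusters touched no protein-coding gene. The best of them, at chr15:85669694-85672371, had intervals of 123.31 and 440.72. The cluster of 3 at chr11:120185419-120190076 scored 118.12, 172.64 and 189.63, and the start of the long non-coding RNA gene 2810410L24Rik lay under the last. At chr2:18026384-18029204 the intervals of 97.37 and 258.3 lay within 1 kb of A930004D18Rik and other long non-coding RNA records. Of the other 6 clusters, the ones at Malat1 and Dleu2, both long non-coding RNA genes, had summed scores of 181.74 and 230.91; these 2 were singled out after their values were seen.

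Promoters of genes with clustered and with solitary intervals were alike in base composition. A promoter was listed for 517 of the 650 genes with a clustered interval (79.54%), for 4856 of 6059 genes with solitary ones only and for 12119 of 15178 genes with none. For a gene with several listed starts, only the window at the outermost start was read. That window need not be the one under an interval. The ratio of observed to expected CpGs had medians of 0.82, 0.82 and 0.37, and GC content medians of 64.33, 64.0 and 52.67%. All motifs were searched on both strands. The E-box CACGTG was found in 14.51% of the first group, 10.91% of the second and 7.91% of all 17492 genes with a listed promoter. The NRF1 motif was found in 6.96, 11.53 and 6.66%, and the YY1 motif in 3.68, 2.22 and 1.27%. The GC box GGGCGG was found in 69.44% of the clustered and 71.36% of the solitary group (46.32% of all). The ETS motif CCGGAAG was found in 16.63 and 19.07% (11.91% of all), and CCAAT in 37.33 and 35.56% (39.2% of all). TATAAA was found in 6.58 and 5.99% (13.34% of all), and TGACGTCA in 2.71 and 3.67% (2.33% of all). The GATA motif AGATAA was found in 4.06 and 4.49% (9.94% of all). Motif shares carry no confidence interval here, and no difference between the groups was tested. A match is a run of letters in the window and does not show that a factor binds there.

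Clusters were found on all autosomes and on the X chromosome. The clustered share of intervals ran from 8.19% on chromosome 3 (23 of 281) to 22.66% on chromosome 17 (75 of 331) among autosomes, with the others between 10.68 and 18.93%. Chromosome 11 had the most clusters, 47, and the most intervals, 629. The X chromosome had 1 cluster of 2 among its 29 intervals.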

How the data were processed

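Chromatin from pooled testes was immunoprecipitated with an anti-ARID4B antibody and sequenced beside input DNA, per the labels' protocols. BWA and MACS are named in the submitters' processing notes, without versions or parameters, and the notes name mm9 while the list is named for mm10. The authors deposited 1 list of intervals with a score for each, whose scale is not given in the sources used here: it is labelled as p-values, but all values exceed 70. Scores were ranked, summed and divided only within the list, and such ratios are not folds of enrichment. Of the intervals 80.26% overlapped the 1 kb around a protein-coding gene end of GRCm38.p6 in place, and 12.92 or 13.27% when moved by 5 kb, so positions were read as GRCm38 and counted from 1. Depth is unknown.

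Gaps count the bases between neighbouring edges. Genes (21887 protein-coding, on assembled chromosomes) came from a RefSeq table, and starts with strand and promoter sequences from a RefSeq promoter table that lists 17492 of them (79.92%). A gene was touched when its record with 1 kb on either side overlapped an interval by at least 1 bp. Confidence intervals of shares are 95% Clopper-Pearson intervals, and motif shares have none. Lists were matched by symbol or an unambiguous older symbol. The members and lists were chosen with earlier results of these data known. Named genes were those of clusters with 4 or more intervals, of the 12 highest summed scores, of the smallest and largest gaps, of the 3 best clusters of each arrangement, and up to 4 best members of each list. Other members were named only to complete a count. Alternatives were gaps of 2500 and 10000 bp, intervals scoring above the median, autosomes only, a margin of 500 bp, interval midpoints, and only genes whose 1 kb surroundings hold no other gene's end. Clustering and arrangement were tested on simulated data. Python 3.11.15, pandas 2.3.3 and scipy 1.17.1 were used.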

Additional observations from a re-analysis of the deposited data

How the results depend on the processing

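The limits below are those of 1 list from 1 ChIP library: the spread between samples and the reads behind each score are unknown. The cause of each shift was not tested. Joining at 2500 bp put 12.11% of intervals in clusters, with a median gap of 283.5 bp, span of 2666 bp and clustered width of 991 bp; 67.9% of clusters were at 1 gene and 4.24% at separate gene ends, and clustered promoters had 65.67% GC. Joining at 10000 bp gave 20.82%, a gap of 1627 bp and a span of 5404.5 bp, with 81.98% of clusters of 2, 43.99% at 1 gene, 27.6% at separate ends, 68.94% of clustered intervals at a gene end and 27.08% inside a record, and 1030 genes touched. Intervals scoring above the median gave 273 clustered intervals (8.23%) in 133 clusters, 94.74% of them of 2, with a span of 3690 bp. Their median scores were 192.75 clustered, 183.11 solitary, 261.59 for the best of a cluster and 158.98 for the others, and their widths 1334 and 1281 bp. Of the solitary ones 85.64% lay at a gene end and 13.05% inside a record. There 0.75% of clusters touched no protein-coding gene, 189 genes touched a clustered interval and 131 had 2 or more, and solitary promoters had a CpG ratio of 0.84 and 65.33% GC. With a margin of 500 bp, 55.34% of clustered and 77.85% of solitary intervals lay at a gene end and 40.12 and 19.7% inside a record. By midpoint these were 52.87, 76.35, 42.39 and 21.21%. Without genes that have another gene's end nearby, the CpG ratio was 0.85 clustered and 0.81 solitary, and clustered GC 66%. Clustered intervals were at a gene end less often than solitary ones under the gaps, margin and midpoint tried. Of the 24 gene list counts, 6 moved by over 1.5 times at 2500 bp, 6 at 10000 bp, 13 above the median score and 0 with the other margin or the midpoint. No paired analysis was possible because there was 1 library per group.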
